A study of Mus musculus with 6 samples.

Results

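Mitochondrial ribosomal proteins are encoded by nuclear genes, and in the deposited expression table they are the 78 of 11789 listed genes whose symbol starts with Mrpl or Mrps. The rule reads only the symbol and uses no measured value. The study profiled alveolar macrophages, which clear particles and microbes from the lung surface, in C57BL/6 mice exposed to an agent abbreviated BLM. Columns A20-1, A20-3 and A20-4 of the table carry the name of the deleted gene and were read as the 3 conditional knockout libraries. Columns BLM1, BLM2 and BLM3 carry only the name of the exposure and were read as the 3 wild-type libraries, because the labels hold no other group. A20, the product of Tnfaip3, edits ubiquitin chains and restrains NF-kB signalling. No label or file used here states which Cre line was used, what was deleted, the dose, the timing, the age of the mice or any pooling of animals, so the p-values below rest on the spread among libraries that may be technical in part. The series title gives the exposure to both groups, so no value here measures the exposure itself.

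The mitochondrial ribosome, or mitoribosome, descends from a bacterial ribosome and works inside the mitochondrial matrix. It makes only the few proteins that mitochondrial DNA encodes, all of them subunits of the respiratory chain or of ATP synthase, on ribosomal RNAs that mitochondrial DNA encodes too. Every one of its proteins is made in the cytosol and imported. Some are counterparts of bacterial ribosomal proteins, and others are found only in mitochondria, where they form much of the outer shell. A cell can build a complete mitoribosome only when each nuclear gene is expressed, and its large and small subunits assemble separately. In macrophages the respiratory chain that depends on it is known to be run at different rates in different activation states.

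By textbook assignment the 78 genes divide into 51 for the large subunit, 26 for the small subunit and 1, Mrps36, whose product belongs to the 2-oxoglutarate dehydrogenase complex in spite of its name. A symbol can mislead in other cases as well, because Mrps18a and Mrps30 encode proteins of the large subunit. Of the 77 mitoribosomal members, 46 were assigned a bacterial counterpart and 31 were not. Mrps18a and Mrps18b, though relatives of bacterial S18, were placed among the 31. All 78 had a mean FPKM (fragments mapped to a gene, corrected for its transcript length and for library size) of at least 1, so no member was lost to the filter on low values. The genes lay on 17 chromosomes, with 11 on chromosome 11, 8 on chromosome 17 and 7 on chromosome 6 (GRCm38).

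The DNA around the start sites of these genes holds some short words at higher shares than that of genes tested, which the symbol did not select. RefSeq promoters (GRCm38.p6, 250 bases before to 50 after the start) were found for 69 members, with 75 windows. The ETS core CCGGAAG, read on either strand and known as the binding word of GABP and other ETS factors, was in 26 of 75 windows (34.7%), against 8.86% of all 32851 windows in the table and 18.6% of the windows of genes tested here. The YY1 word AAGATGGC was in 12 of the 75 member windows (16%), against 2.75% of all windows and 4.80% of those of genes tested. The NRF1 core GCATGCGC was in 10.7%, against 2.71% and 5.41%. The E-box CACGTG, a word bound by Myc, was in 9.33%, above the 7.15% of all windows and below the 10.2% of those of genes tested. TATAAA was in 6.67%, against 13.6% of all windows and 6.99% of those of genes tested. A stretch that joins the ETS and YY1 words on shared bases was in 0 of the 75 windows. Windows of cytosolic ribosomal protein genes held the ETS core at 34.7% too, and those of nuclear-encoded respiratory chain genes at 23.2%. A match is a description of letters, not a binding site.

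The stretches below show the 100 bases before the RefSeq start of 5 members, 5′ to 3′ on the gene's own strand, with matches to these words in capitals. For Mrpl27, Mrpl17 and Mrpl3 the stretch reaches past the gene's start in the deposited coordinates. The NRF1 match of Mrpl17 lies inside the deposited gene. Mrpl27, Mrpl52 and Mrpl43 are shown because their values were lower in every knockout library than in any wild-type library and they carry the ETS core, Mrpl17 because it was lower too and carries the NRF1 core, and Mrpl3 because it carries the ETS core and its groups overlapped.
Mrpl27 (chr11:94653691-94653790, plus strand): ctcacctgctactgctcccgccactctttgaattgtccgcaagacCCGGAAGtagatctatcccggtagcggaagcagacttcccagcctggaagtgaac
Mrpl52 (chr14:54426809-54426908, plus strand): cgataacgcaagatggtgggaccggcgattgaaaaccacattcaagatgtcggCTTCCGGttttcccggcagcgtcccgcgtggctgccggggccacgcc
Mrpl43 (chr19:45006443-45006542, minus strand): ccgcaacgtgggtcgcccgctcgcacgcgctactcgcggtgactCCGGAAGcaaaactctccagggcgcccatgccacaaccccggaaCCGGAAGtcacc
Mrpl17 (chr7:105811088-105811187, minus strand): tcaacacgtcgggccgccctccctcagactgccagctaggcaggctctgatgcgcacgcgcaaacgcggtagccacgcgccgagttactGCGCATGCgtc
Mrpl3 (chr9:105053168-105053267, plus strand): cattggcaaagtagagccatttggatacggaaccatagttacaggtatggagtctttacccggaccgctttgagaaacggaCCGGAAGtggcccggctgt
In CTTCCGG and GCGCATGC the words stand on the opposite strand. The ETS core was in 43.8% of 16 windows of members that were lower without overlap and in 32.2% of 59 windows of the other members. The NRF1 core was in 6.25% of those 16 windows and in 11.9% of the other 59. These differences were not tested.

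The libraries were checked first. The targeted gene Tnfaip3 measured 8.44, 12.9 and 6.80 FPKM in the knockout libraries and 4.47, 2.18 and 21.6 FPKM in the wild-type ones (each in numerical order of the columns, as below), so its whole-gene level did not separate the labels (exact two-sided permutation p = 1, with 0.1 the smallest possible). Every direction below is one between libraries as labelled. BLM3 stood apart, with a mean Pearson correlation to the other libraries of 0.903 across genes against 0.951 to 0.957 for the rest. In BLM3 the 9 neutrophil markers found in the table, S100a8 and S100a9 among them, summed to 2829 FPKM, against 84.1 to 131.6 in the knockout and 142 and 150.5 in the other wild-type libraries. Recruited macrophage markers summed to 840 to 1111 FPKM in the knockout and 2254 to 2477 in the wild-type libraries. C1qa, C1qb, C1qc and Apoe had the largest gaps, with Apoe at 266, 280 and 266 against 750, 908 and 777. Others of the list overlapped, among them Fn1 (380, 142 and 260 against 317, 307 and 96.4) and Cx3cr1 (7.32, 4.35 and 3.43 against 2.45, 2.75 and 3.79). Lung epithelial markers summed to 317 to 433 and 66.1 to 212 FPKM, and alveolar macrophage markers to 6781 to 9070 and 4643 to 8195. Of these lists, 5 of 13 recruited macrophage entries and 1 of 15 alveolar macrophage genes fell, and the part of other cells in the members' values was not tested. In bulk samples, fewer cells of a type and less RNA per cell cannot be told apart.

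Members differed widely in level among themselves. FPKM is scaled to length, but the length used for each gene is not stated in the sources used here. Levels of different genes are compared below only with that limit. Over the 6 libraries the mean ran from 1.94 for Mrps35 to 37.8 for Mrpl52, a ratio of 19.4. The median member had 9.93 FPKM, against 7.72 for all genes tested and 162 for the 83 cytosolic ribosomal protein genes. Large subunit genes had a median of 10.2 FPKM and small subunit genes one of 8.28. Genes with a bacterial counterpart had a median of 11.4 FPKM and those without one 8.30. The spread of log2(FPKM + 1) levels among members (SD 1.03) stood beside 1.49 among cytosolic ribosomal proteins and 1.30 among nuclear-encoded respiratory chain and ATP synthase subunits, a difference that was not tested.

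Mrpl52, a large subunit protein found only in mitochondria, stood at the top of the order. Mrps21 (36.2 FPKM), a small subunit counterpart of a bacterial protein, came next, followed by Mrpl24 (33.4), Mrpl34 (32.7) and Mrps15 (31.9). The ranges of these 5 genes overlapped across libraries, so their order within the top is not resolved. At the lower end were Mrps35, Mrpl47 (2.16), Mrps10 (2.23), Mrpl15 (2.61) and Mrps22 (2.65). Longer members had lower levels, with a Spearman rho of -0.78 between mean FPKM and summed exon length over the 78 members, against -0.22 over 10690 genes tested that had an annotated length, given here as a description without a test. Members were short, with a median exon length of 2394 bases against 4338 over all genes tested. Summed exon length was 8631 bases for Mrps35 and 1109 for Mrpl52. How far the order and range of levels follow the length used for FPKM was not tested. The order of members was nearly the same in every library, with Spearman rho between 0.966 and 0.984 for the 15 pairs of libraries.

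**Figure D1:**
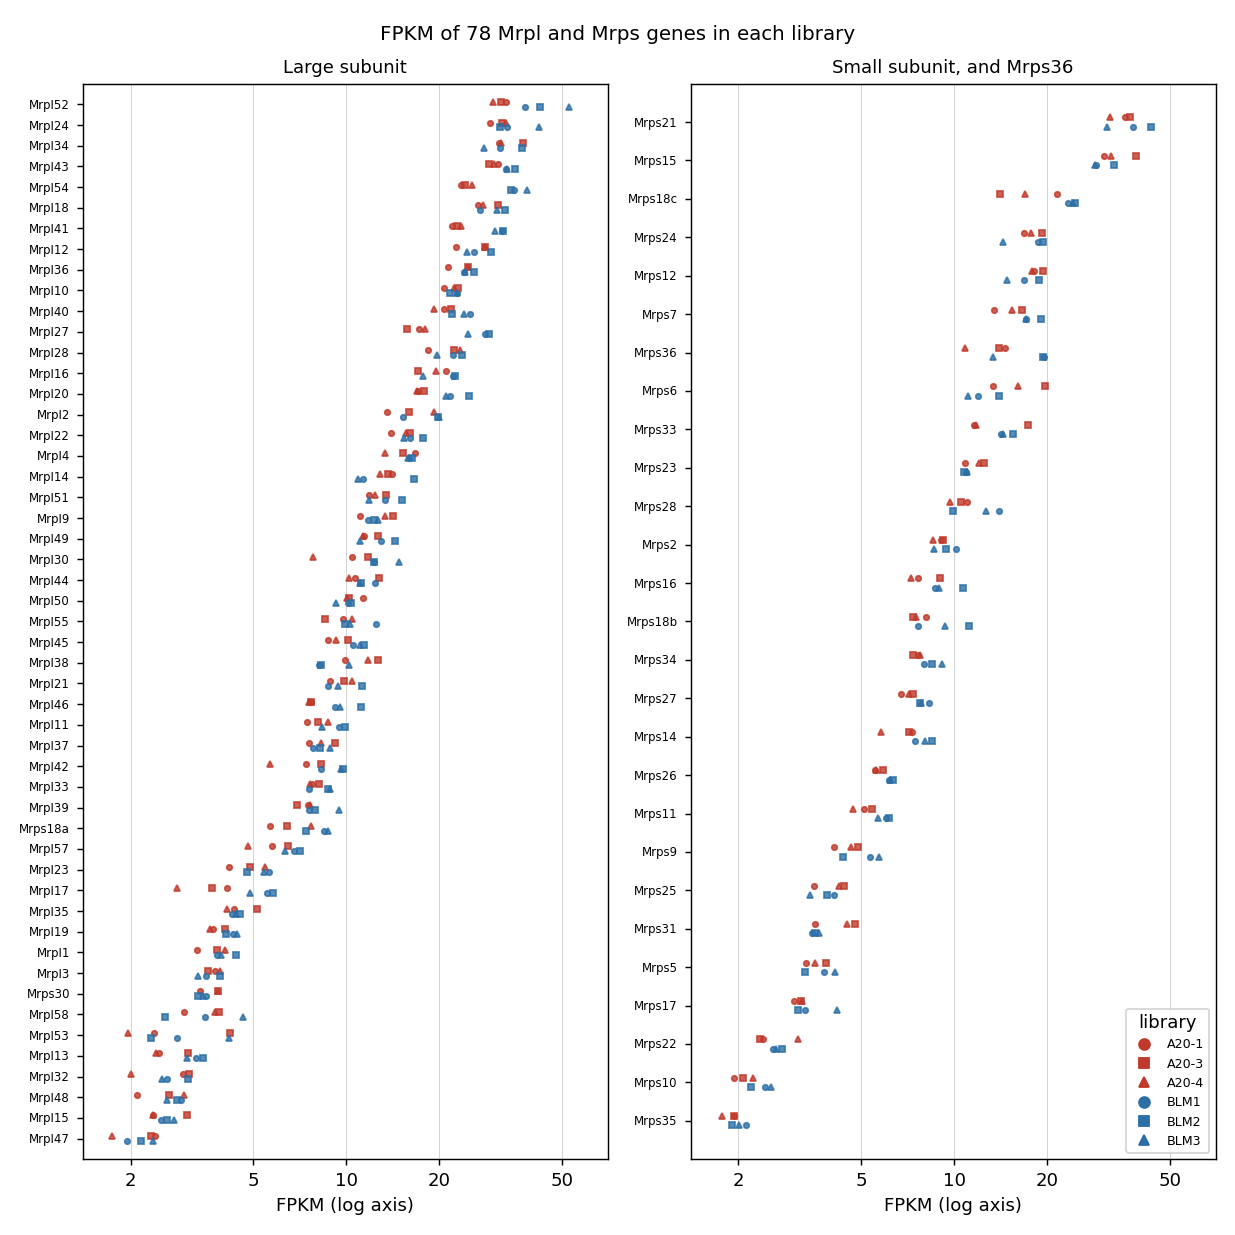
FPKM (log axis) of each of the 78 genes in each of the 6 libraries, ordered by mean level, with large subunit genes on the left and small subunit genes and Mrps36 on the right. Red symbols are the libraries labelled knockout and blue the wild type, with one symbol shape for each library. The genes span from about 1.94 (Mrps35) to 37.8 (Mrpl52) in mean FPKM, and the colours lie close together for most of them.

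The comparison of knockout with wild-type libraries asks how A20 deletion bears on macrophages after the exposure. Of the 78 members, 0 rose and 0 fell (limma, adjusted p under 0.05 over all 10696 genes tested), where 1.1% of all genes tested were called, 0.851% as falls and 0.252% as rises. At an unadjusted p under 0.05 there were 9 members, or 11.5%, against 20.3% of all genes tested. The differences were small and mostly negative, with 61 members below 0 and 17 above, a median log2 difference (knockout minus wild type, log2(FPKM + 1) scale) of -0.11 and a range from -0.65 for Mrpl27 to 0.37 for Mrps6. The median over all genes tested was 0.021. The 95% intervals of all 78 members lay within 1 log2 unit on either side of 0, with the outermost bounds at -0.91 (Mrpl27) and 0.76 (Mrps6). The median distance from the estimate to either end of its interval was 0.29. On this scale the change of genes with low FPKM is understated.

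**Figure D2:**
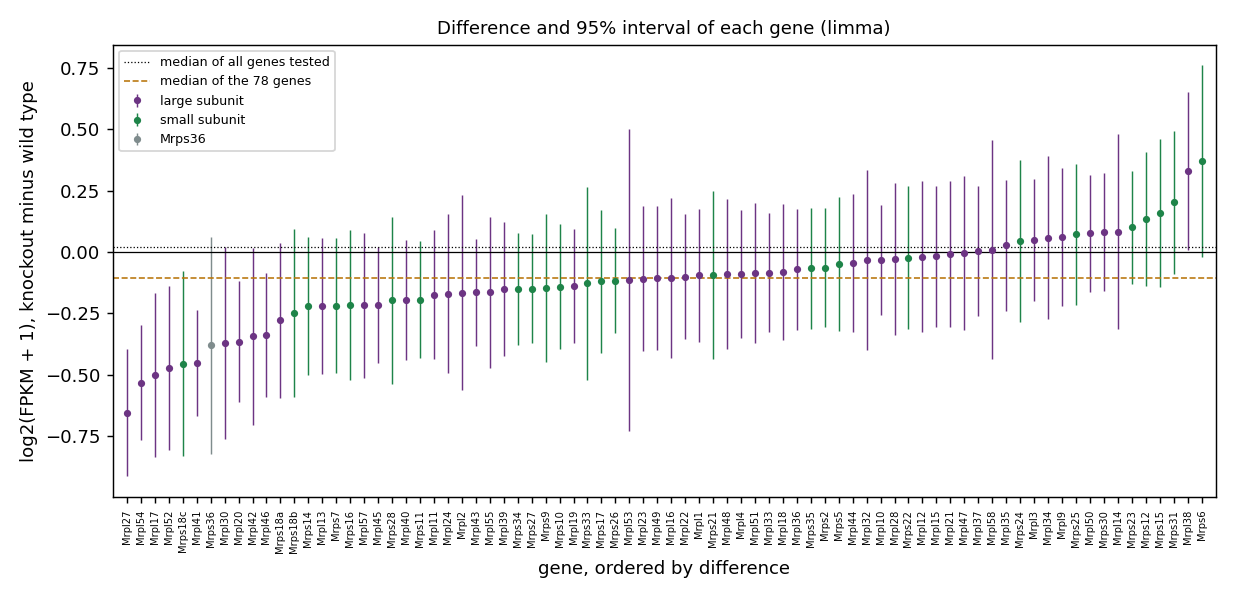
Difference in log2(FPKM + 1), knockout minus wild type, for each gene with its 95% interval from limma, ordered by size and coloured by subunit. Most points lie below 0 around the dashed median of -0.11, and 8 intervals lie wholly below 0 and 1 (Mrpl38) above it.

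In 19 of the 78 members (24.4%) each knockout library was below each wild-type library, and in 0 each knockout library was above. The corresponding shares over all genes tested were 13.1% and 15.9%. Of the 19, 7 belonged to the small subunit (Mrps7, Mrps11, Mrps14, Mrps18c, Mrps26, Mrps27 and Mrps34), or 26.9% of its genes, and 12 to the large subunit, or 23.5%. The proteins with a bacterial counterpart gave 9 of 46 (19.6%) and those without gave 10 of 31 (32.3%). Median differences were -0.12 for the small subunit and -0.10 for the large, and -0.09 and -0.12 for the classes with and without a bacterial counterpart.

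Summed over the members, FPKM came to 896, 972 and 917 in the knockout libraries and 1009, 1071 and 1013 in the wild-type ones. These sums averaged 928 ± 38.9 and 1031 ± 34.5 (SD, n = 3 each), so the knockout sum was 90.1% of the wild-type sum, and the groups did not overlap. The sum over every gene of the table did not overlap either, at 266094 to 277394 in the knockout and 280415 to 294525 in the wild-type libraries, with a ratio of 94.4%. As a share of that sum, the members held 0.343% ± 0.0068 in the knockout and 0.360% ± 0.0041 in the wild-type libraries (SD, n = 3). When each library was rescaled to TPM, which gives every library the same total, the members' median difference was -0.036 and that of all genes tested 0.10, and the gap between the medians was -0.14 against -0.13 with FPKM as deposited. Under TPM 12 members were lower and 8 higher without overlap, against 9.06% and 22.4% of all genes tested. Single libraries contributed unevenly, since 32 members had their highest value in BLM2 and 25 and 24 had their lowest in A20-1 and A20-4.

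Among large subunit genes with a bacterial counterpart, Mrpl27 differed most. Its protein is the counterpart of bacterial L27, which lies beside the site where peptide bonds form. Mrpl27 (ENSMUSG00000024414.13, chromosome 11, 94653767 to 94660089 in GRCm38, plus strand) had 17.2, 15.65 and 17.9 FPKM in the knockout and 28.1, 28.9 and 24.7 in the wild-type libraries. All knockout values lay under the lowest wild-type value. It differed by -0.65 ± 0.11 log2 units (SE), not past the threshold (limma adjusted p = 0.0537). Exons of Mrpl27 overlap those of Eme1 on the opposite strand, so reads of the pair may not be told apart there.

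Mrpl17, the counterpart of a protein near the exit of the peptide tunnel, had 4.11, 3.67 and 2.83 FPKM in the knockout and 5.54, 5.77 and 4.86 in the wild-type libraries. The groups did not overlap, and the log2 difference of -0.50 ± 0.14 was not called (limma adjusted p = 0.129). Mrpl20, whose bacterial counterpart binds ribosomal RNA early in assembly, had 17.0, 17.8 and 16.9 FPKM against 21.7, 24.9 and 21.1. Its knockout values were nearly equal and all below the wild-type ones, and it differed by -0.36 ± 0.10 log2 units (limma adjusted p = 0.132).

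The proteins of the flexible stalk, which recruits translation factors, had overlapping groups. Mrpl12, the stalk protein proper, had 22.7, 28.1 and 28.1 FPKM in the knockout and 25.9, 29.4 and 24.5 in the wild-type libraries, and its groups overlapped. Mrpl10, which anchors the stalk, had 21.96 ± 1.14 and 22.4 ± 0.714 FPKM (SD, n = 3), and Mrpl11, at the stalk base, 8.08 ± 0.630 and 9.24 ± 0.804, with limma adjusted p of 0.870 and 0.409. Mrpl2, Mrpl3 and Mrpl4, counterparts of other bacterial core proteins around the peptidyl transferase centre and tunnel, also had overlapping groups. Mrpl2 had a log2 difference of -0.17, Mrpl3 one of 0.051 and Mrpl4 one of -0.087, with limma adjusted p from 0.602 to 0.806. Mrpl47 and Mrpl55, further large subunit genes with a bacterial counterpart, had -0.0033 and -0.16.

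Large subunit proteins found only in mitochondria included 4 of the 8 members with the smallest p-values. Mrpl54 had 23.5, 24.1 and 25.5 FPKM in the knockout and 34.9, 34.0 and 38.5 in the wild-type libraries. No values overlapped, and Mrpl54 differed by -0.53 ± 0.10 log2 units (SE, limma adjusted p = 0.0649). Mrpl41 had 21.95, 22.7 and 23.5 FPKM against 31.8, 32.2 and 30.35, close together within each group, with -0.45 ± 0.09 (limma adjusted p = 0.0756). Mrpl52 had 32.8, 31.6 and 29.7 FPKM against 37.9, 42.3 and 52.5. Its wild-type values were spread and BLM3 was the highest, and it differed by -0.47 ± 0.14 log2 units (limma adjusted p = 0.143).

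Mrpl46 had 7.66, 7.67 and 7.59 FPKM in the knockout and 9.18, 11.2 and 9.496 in the wild-type libraries. The groups were apart, at -0.34 ± 0.11 (limma adjusted p = 0.159). Mrpl46 and the small subunit gene Mrps11 have exons that overlap on opposite strands, and whether counting used strand is not stated in any source used here, so reads of the pair may not be told apart there. The opposite direction was seen in Mrpl38, which encodes a protein of the central protuberance, at 9.86, 12.7 and 11.7 FPKM against 8.17, 8.28 and 10.2. A20-1 lay under BLM3, so the groups overlapped, and the difference was 0.33 ± 0.13 (limma adjusted p = 0.238). Mrpl44, with a domain related to an RNA-cleaving enzyme, had 11.2 ± 1.38 and 11.5 ± 0.738 FPKM (SD, n = 3).

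Mrpl58, related to bacterial release factors and able to free stalled chains, had 3.54 ± 0.486 and 3.56 ± 1.02 FPKM (SD, n = 3). Mrpl30, which has a bacterial counterpart, was among the 19 members without overlap, at 10.5, 11.7 and 7.78 against 12.3, 12.2 and 14.8 FPKM, with a difference of -0.37 ± 0.16 (limma adjusted p = 0.265). Mrps18a and Mrps30, the large subunit proteins with a small subunit name, had differences of -0.28 and 0.082 (limma adjusted p = 0.293 and 0.675). The remaining large subunit genes lower without overlap were Mrpl45 (-0.21), Mrpl40 (-0.19), Mrpl43 (-0.16) and Mrpl19 (-0.14).

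**Figure D3:**
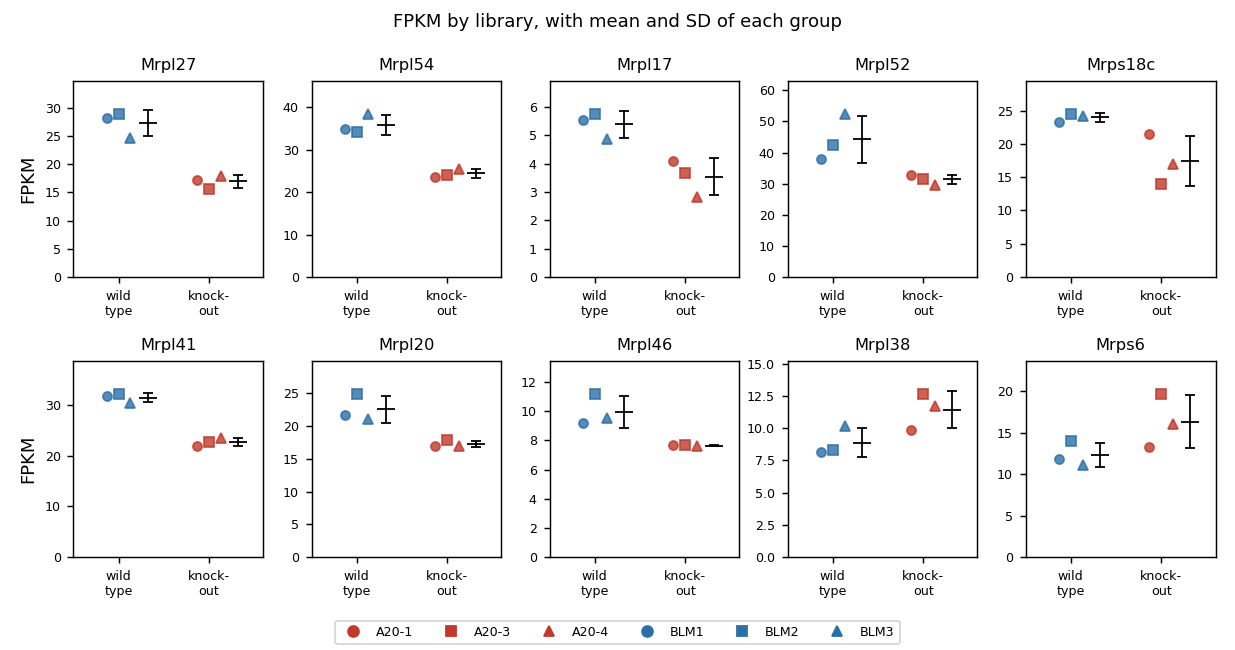
FPKM by library of the 8 genes with the smallest p among those lower in the knockout libraries and of Mrpl38 and Mrps6, with points for libraries and a bar for the mean and SD of each group of 3. The first 8 show knockout values below every wild-type value, as for Mrpl27 (15.65 to 17.9 against 24.7 to 28.9 FPKM), and in the last 2 the groups overlap.

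In the small subunit, Mrps18c had the most negative and Mrps6 the most positive difference. In bacteria the counterparts of Mrps6 and Mrps18c bind each other on the platform of the small subunit. Mrps18c had 21.5, 14.0 and 16.9 FPKM in the knockout and 23.2, 24.5 and 24.2 in the wild-type libraries. The wild-type values were close together and the knockout values spread below them, and Mrps18c differed by -0.45 ± 0.16 log2 units (SE, limma adjusted p = 0.184). Mrps6 had 13.3, 19.7 and 16.1 FPKM against 11.9, 14.0 and 11.1. A20-1 lay within the wild-type range, and the difference was 0.37 ± 0.16 (limma adjusted p = 0.265). Mrps6 shares exon sequence on its own strand with Slc5a3, so reads there may have been assigned to either gene. The 3 relatives of bacterial S18 all had negative differences, with -0.28 for Mrps18a and -0.25 for Mrps18b, whose groups overlapped.

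Mrps12, whose bacterial counterpart lines the decoding centre, had 18.4 ± 0.770 FPKM in the knockout and 16.8 ± 1.96 in the wild-type libraries (SD, n = 3), and a difference of 0.13 ± 0.11 (SE, limma adjusted p = 0.532). Mrps15, with a bacterial counterpart, and Mrps31, found only in mitochondria, had the next largest positive differences of the small subunit, at 0.16 and 0.20. Mrps7 had 13.4, 16.5 and 15.4 FPKM against 17.0, 19.1 and 17.1, without overlap and with a difference of -0.22 (limma adjusted p = 0.330). Mrps27, an RNA-binding member of the pentatricopeptide repeat family, had 7.06 ± 0.299 and 7.94 ± 0.321 FPKM (SD, n = 3), also without overlap (limma adjusted p = 0.401). Mrps16, Mrps22, Mrps24 and Mrps28 had differences of -0.22, -0.022, 0.046 and -0.20, each with overlapping groups.

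Mrps36, outside the mitoribosome, had 14.5, 13.9 and 10.8 FPKM in the knockout and 19.6, 19.4 and 13.4 in the wild-type libraries. BLM3 lay within the knockout range, and the difference was -0.38 ± 0.19 (limma adjusted p = 0.302). Annotated pseudogenes are named after 3 members (Mrps36, Mrpl48 and Mrpl23), whose values are uncertain where reads match both copies.

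Another 5 genes for mitoribosomal proteins carry other symbols and stayed outside the choice by symbol. Aurkaip1, a small subunit protein, had 18.7, 19.6 and 16.2 FPKM in the knockout and 25.7, 24.8 and 19.97 in the wild-type libraries, without overlap, and a difference of -0.35 ± 0.13 (SE, limma adjusted p = 0.214). The other 4 had overlapping groups and differences between -0.059 and 0.035. These were Chchd1 at 21.01 and 21.9 FPKM, the GTP-binding protein Dap3 at 5.68 and 5.51, the pentatricopeptide repeat protein Ptcd3 at 3.98 and 4.05, and the large subunit protein Gadd45gip1 at 9.46 and 9.21 (knockout and wild-type means, n = 3).

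The calls depended on how the libraries were weighted. Without BLM3, 3 members fell and 0 rose, where 2.5% of all genes tested fell and 1.35% rose. The 3 were Mrpl27 (-0.72, limma adjusted p = 0.0245), Mrpl41 (-0.48, 0.0464) and Mrpl54 (-0.48, 0.0472). With array weights, which let limma give each library its own precision, 6 members fell and 1 rose, against 9.27% and 8.81% of all genes tested. The falls were Mrpl27, Mrpl54, Mrpl41, Mrpl17, Mrps36 and Mrpl20 and the rise was Mrpl38 (limma adjusted p between 0.00441 and 0.0284).

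Exon length moved with the differences across the whole table. In the shortest of 5 equal bands of genes tested (204 to 2395 bases) the median log2 difference was -0.11, and in the longest band (7356 to 41324 bases) it was 0.13. The shortest band held 39 of the 78 members, with a median of -0.13, and 33.3% of them were lower without overlap against 23.6% of all genes in the band. In the longest band 6 members had a median of -0.11. Across members alone the Spearman rho of the difference with exon length was 0.14, against 0.26 across 10690 genes tested, described without a test. With the trend on length removed from each library, an alternative chosen after seeing the data, the members' median was -0.085 against -0.001 for all genes tested. Without overlap 20 members were then lower and 7 higher, against 14.3% and 13.8% of genes, and 14 of the 19 members lower in the main comparison were among the 20.

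**Figure D4:**
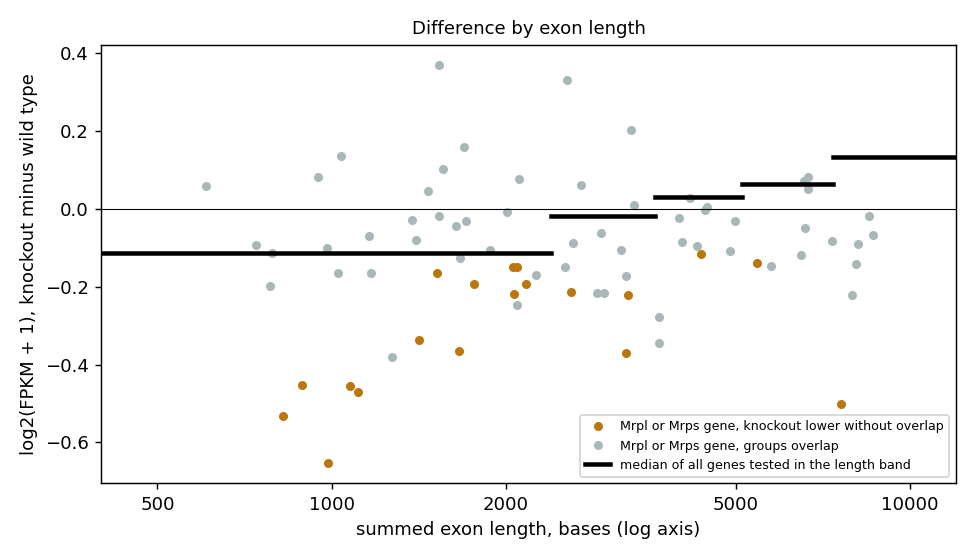
Difference in log2(FPKM + 1), knockout minus wild type, of each of the 78 genes against its summed exon length in bases (log axis). Black bars give the median of all genes tested in 5 length bands, from -0.11 in the shortest to 0.13 in the longest, and orange points are the 19 genes lower in every knockout library than in any wild-type library.

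Genes that serve the mitoribosome were measured beside it. None of the companion lists described next held a gene past the threshold (limma, adjusted over all genes tested). Over all genes tested, 20.3% had an unadjusted p under 0.05. Of 25 tested genes for ribosome assembly and rRNA modification, 16 were negative, with a median of -0.047, and 2 had an unadjusted p under 0.05. The GTPase Noa1 had 5.21 ± 0.304 and 3.76 ± 0.258 FPKM (knockout and wild type, SD, n = 3, limma adjusted p = 0.119), and the pseudouridine synthases Trub2 and Rpusd4 had differences of -0.36 and 0.34. Of 16 translation factors, 11 were positive, with a median of 0.080, and 2 had an unadjusted p under 0.05. The initiation factor Mtif2 had 6.92 ± 0.376 and 8.71 ± 0.344 FPKM (limma adjusted p = 0.166). Slirp, which stabilises mitochondrial mRNAs, had 4.46 ± 1.24 and 7.03 ± 0.686, and Taco1, an activator of Cox1 translation, 6.18 ± 0.298 and 5.22 ± 0.243.

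The 20 mitochondrial aminoacyl-tRNA synthetase and amidase genes, whose products charge the tRNAs, had a median of 0.069 and 12 positive differences. Rars2, Ears2 and Lars2 had the smallest p, with differences of -0.34, 0.23 and 0.19 (limma adjusted p from 0.144 to 0.402). For 22 genes of mitochondrial transcription and RNA processing the median was 0.017, and 4 had an unadjusted p under 0.05. The RNA polymerase gene Polrmt had 4.44 ± 0.609 and 3.22 ± 0.381 FPKM (SD, n = 3, limma adjusted p = 0.193), and Ptcd1 and Fastkd5, both involved in mitochondrial RNA processing, had differences of 0.33 and 0.32. Tfam, which packages mitochondrial DNA and starts its transcription, had 5.64 ± 0.947 and 6.06 ± 1.199.

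Among 19 tested regulators, 6 were higher and 1 lower without overlap (31.6% and 5.26%, against 15.9% and 13.1% of all genes tested), and the median was 0.12. Atf5, a transcription factor of the mitochondrial stress response, had 15.1, 21.6 and 21.4 FPKM in the knockout and 6.96, 10.05 and 13.3 in the wild-type libraries, a difference of 0.90 ± 0.24 (SE, limma adjusted p = 0.122). Gabpa, the DNA-binding subunit of GABP, had 12.1 ± 1.06 and 9.16 ± 1.10 FPKM, and the coactivator Ppargc1b 3.24 ± 0.056 and 2.51 ± 0.203 (SD, n = 3, limma adjusted p = 0.175 and 0.204). Gabpb1, which encodes another GABP subunit, was the 1 lower without overlap, at 2.34 ± 0.260 and 3.31 ± 0.796 FPKM (limma adjusted p = 0.270). Gabpb2 had 8.42 ± 0.489 and 7.53 ± 1.72 FPKM, with overlapping groups. Yy1 was higher without overlap, at 19.6 ± 0.589 and 16.2 ± 1.30 FPKM (limma adjusted p = 0.212). Nrf1 had 1.79 ± 0.155 and 1.44 ± 0.340 FPKM, and Myc 9.23 ± 0.928 and 9.76 ± 2.64.

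The mitoribosome translates 13 mitochondrially encoded mRNAs. All 13 had a negative difference, with a median of -0.36, while 0 were called and 1 had an unadjusted p under 0.05. Their summed FPKM was 18556, 19031 and 10718 in the knockout and 19709, 22631 and 17446 in the wild-type libraries, so A20-4 lay below the rest and A20-1 and A20-3 above BLM3. The complex I subunit genes mt-Nd3 and mt-Nd1 and the complex IV gene mt-Co2 had the smallest p, with differences of -0.75, -0.57 and -0.35 (limma adjusted p = 0.244, 0.265 and 0.277) and no overlap between groups.

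Of 79 nuclear-encoded partners, 0 were called, and 20 (25.3%) had an unadjusted p under 0.05, against 20.3% of all genes tested. The respiratory chain and ATP synthase subunits had a median of -0.19, and 28 were lower and 2 higher without overlap (35.4% and 2.53%, against 13.1% and 15.9% of all genes tested). The complex I genes Ndufs4, Ndufa1 and Ndufv3 had the smallest p, with differences of -0.37, -0.49 and -0.49 (limma adjusted p from 0.104 to 0.126). Of 83 cytosolic ribosomal protein genes, 0 were called, 5 (6.02%) had an unadjusted p under 0.05, and the median was -0.14. Without overlap 10 were lower and 1 higher (12.05% and 1.205%), both under the shares over all genes tested. Rpl36al and Rpl22l1 had -0.32 and -0.38 and Rpl10 had 0.32 (limma adjusted p from 0.174 to 0.190). The members' sum was 5.56%, 5.12% and 5.58% of the cytosolic sum in the knockout and 6.04%, 5.86% and 4.62% in the wild-type libraries, and these overlapped. Median exon lengths were 1675 bases for the respiratory chain set and 1770 for the cytosolic set. The lists of factors and regulators had longer genes. Their medians were 3606 bases for transcription and RNA processing, 3777 for assembly, 4143.5 for translation factors, 5173.5 for synthetases and 6284 for regulators. Whether the members differ from these sets was not tested.

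**Figure D5:**
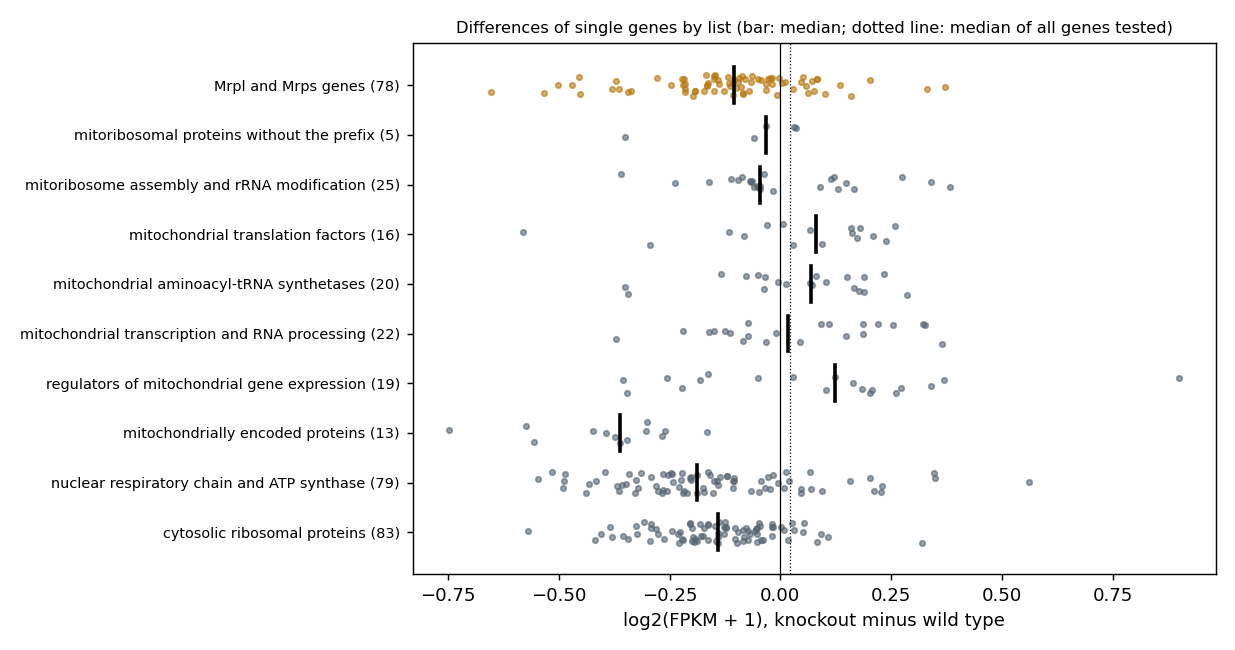
Difference in log2(FPKM + 1), knockout minus wild type, of each tested gene in 10 sets (number of genes in brackets), with a bar at the median and a dotted line at the median of all genes tested (0.021). The Mrpl and Mrps genes (median -0.11) lie between the respiratory chain set (-0.19) and the factors and regulators, whose medians run from -0.047 to 0.12. The mitoribosomal proteins without the prefix (-0.033) lie within that last range. Cytosolic ribosomal proteins had a median of -0.14 and mitochondrially encoded proteins one of -0.36. Median exon length was 1675 bases in the respiratory chain set and 2394 in the Mrpl and Mrps genes. For the 3 sets named after them, median exon length was 2494, 1770 and 784 bases. In the lists of factors and regulators median exon length ran from 3606 to 6284 bases, and the part of length in this order was not tested.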

How the data were processed

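The authors deposited FPKM values by gene for every library, per the file headers, on genome build GRCm38, per the submitters' processing notes. The kit marked strand, per the labels' protocols. Tools, annotation and strand setting of the counting: not given in the sources used here. Low values showed no whole-read steps, so depth is unknown and no counting error can be given. Columns were assigned by name, 0 went unused, and their numbers are not those of the titles.

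A minimum mean of 1 FPKM left 10696 of 11789 genes. Values were taken as log2(FPKM + 1) and compared with limma 3.58.1 in R 4.3.3 (lmFit, eBayes with trend), two-sided; p was adjusted by Benjamini and Hochberg's method across those 10696 genes, and 0.05 was the threshold for "rose" or "fell". Members' rows were read from this fit. Exon lengths, overlaps and neighbours came from GENCODE M21, where 72 of the 78 members had the deposited coordinates.

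The set of members, though defined by symbol, and the lists were chosen with earlier results of these data known, and subunits and bacterial counterparts were assigned with values at hand. Named genes are the 6 largest differences each way, the 5 highest and 5 lowest levels, and fixed members by role. The 3 smallest p of each list and a few fixed regulators were named too. Mrpl20, Mrpl46 and other members without overlap, Mrpl58, Gabpb1, Gabpb2 and Yy1 were named after their values were seen. Marker lists for T and NK, B, dendritic, fibroblast and endothelial, erythroid and proliferating cells had 0 genes called. Alternatives were other pseudocounts, filters, scalings and variance models, and leaving out each library.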

Additional observations from a re-analysis of the deposited data

How the results depend on the processing

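No paired analysis was possible because the column names carry no replicate number of the titles. Over 16 alternatives, the members' median stayed negative in each, from -0.13 to -0.036, and 41 members were negative and 8 positive in all of them. The count of members called was 0 in each direction except with array weights (6 falls, 1 rise) and without BLM3 (3 falls); leaving out a library gave 0 to 3 falls and 0 rises. Rescaling to TPM gave a median of -0.036 (as deposited -0.11). Under TPM 12 members were lower and 8 higher without overlap, against 9.06% and 22.4% of all genes tested. Removing the length trend gave 7 higher, against 13.8% of genes. Leaving out a library gave 21 to 27 members lower and 0 to 7 higher (7 without A20-1, 5 without BLM2, 1 without BLM3). Shares over all genes are not given here for those fits. Groups separate more easily with a library fewer, so these counts cannot be set beside those of the full set. Over all genes, 27 rose and 91 fell. The counts were 17 and 58 with a minimum FPKM of 5, 41 and 64 under TPM, 942 and 992 with array weights, and 0 to 144 and 0 to 267 without one library (0 and 0 without A20-3, 0 and 4 without BLM1, 0 and 14 without A20-4, 11 and 24 without A20-1, 16 and 76 without BLM2, 144 and 267 without BLM3). The cause was not tested.

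Of 48 members followed singly, 12 changed sign somewhere, and none of the 12 was called in any alternative. Under TPM the sign changed for Chchd1 (0.021), Mrpl10 (0.050), Mrpl12 (0.064), Mrpl15 (0.052), Mrpl44 (0.036), Mrpl47 (0.068), Mrps22 (0.046), Myc (0.029) and Ptcd3 (0.038). With quantile normalization the sign changed for Gadd45gip1 (-0.0019), Mrpl15 (0.019), Mrpl47 (0.049) and Mrps22 (0.014). With array weights the sign changed for Mrpl12 (0.0096), Mrpl15 (0.012), Mrpl2 (0.057), Mrpl47 (0.054), Mrps22 (0.024), Mrps24 (-0.050), Myc (0.12) and Ptcd3 (0.037). With the length trend removed the sign changed for Chchd1 (0.12), Dap3 (-0.037), Mrpl10 (0.055), Mrpl12 (0.081), Mrpl3 (-0.024), Mrpl44 (0.048), Mrps21 (0.12) and Mrps28 (0.0054). Leaving out each library in turn changed the sign of these, with ranges of Dap3 -0.015 to 0.092, Gadd45gip1 -0.025 to 0.13, Mrpl10 -0.062 to 0.0088, Mrpl12 -0.073 to 0.081, Mrpl15 -0.11 to 0.028, Mrpl34 -0.036 to 0.16, Mrpl44 -0.13 to 0.016, Mrpl47 -0.060 to 0.095, Mrps21 -0.21 to 0.015, Mrps22 -0.12 to 0.031, Mrps24 -0.082 to 0.12, Myc -0.16 to 0.14, Ptcd3 -0.18 to 0.068, Tfam -0.23 to 0.022 and Tnfaip3 -0.14 to 1.27.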

Other observations

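Many members sit beside another gene. Of the 78, 18 (23.1%) had a protein-coding neighbour on the opposite strand whose start lay within 1000 bases upstream of their own (head to head), against 10.8% of 10690 genes tested. Exons of 28 members (35.9%) overlapped an exon on the opposite strand, against 30.8% of genes tested. Members with such an overlap had a median log2 difference of -0.10 and those without one of -0.11. Knockout values were all below wild-type values in 9 of the 28 (32.1%) and in 10 of the other 50 (20%). The difference between these shares was not tested. Some neighbours serve mitochondrial gene expression too. Mrps12 lies head to head with Sars2, which charges mitochondrial serine tRNA, and Sars2 had 2.31, 2.29 and 2.35 FPKM in the knockout and 2.12, 2.19 and 2.97 in the wild-type libraries, with overlapping groups like those of Mrps12. Mrps27 lies head to head with Ptcd2, at 17.2 ± 1.57 and 17.6 ± 1.64 FPKM (SD, n = 3). Exons of Mrpl43 overlap those of Twnk, the mitochondrial DNA helicase, at 3.81 ± 0.884 and 2.999 ± 0.453 FPKM. These pairs were chosen after their values were seen.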
